A study of Mus musculus with 36 samples.

Results

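The genes described here are 10 genes of hepatic iron handling: Hamp, Hamp2, Trf, Tfrc, Trfr2, Slc40a1, Fth1, Hfe, Hfe2 and Cp. They were chosen by name, as the probes whose gene name or current symbol is on that list, and not by their measured values. All 10 have a value in the processed table, on 11 of its 21781 probes, out of 13042 genes with a symbol. Hfe has 2 probes. In current nomenclature Trfr2 is Tfr2 and Hfe2 is Hjv.

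Liver RNA was taken from 36 adult male C57BL/6J mice, 12 in each of 3 groups, and every mouse had its own array. All mice first adapted to a mild-high-fat diet with 30 energy% fat. The baseline group (labelled t=0) was killed at the end of that phase, the control group (HF) stayed on the diet for a further 12 weeks, and the quercetin group (HF-Q) ate it for 12 weeks with 0.33% (w/w) quercetin added. Both 12-week groups thus differ from baseline in age and in time on the diet together, which cannot be told apart. Quercetin is a plant flavonol that binds iron, which raises the question of whether its addition goes together with altered transcripts of iron handling. On each array the Cy5-labelled cRNA of a mouse was hybridised with a Cy3-labelled pool made from all samples. The level of a gene is given as the authors' log2 normalised Cy5 signal, a difference as log2 with its standard error (SE), and levels of different probes are not compared with each other because probes differ in brightness for reasons other than RNA amount.

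The liver sets the body's iron balance. Hepatocytes secrete hepcidin, the product of Hamp, which binds the iron exporter ferroportin (Slc40a1) on gut, macrophage and liver cells and has it degraded. Hepcidin transcription rises when bone morphogenetic proteins (BMPs) signal through SMAD proteins with the co-receptor hemojuvelin (Hfe2), with Hfe and transferrin receptor 2 as sensors of transferrin iron, and it also rises with interleukin-6 through STAT3. Transferrin carries iron in plasma, transferrin receptor 1 (Tfrc) takes it up, ferritin stores it and ceruloplasmin (Cp) oxidises it on export.

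Signal was sufficient for all members. Every member probe was well above background in both dyes on all 36 arrays and none was saturated. The dimmest were Tfrc, with a Cy5 signal of 4.88 and a Cy3 signal of 2.49 times background, and the second Hfe probe with 6.71 and 3.11 times. At the bright end, the Cy5 values of Hamp, Trf, Trfr2, Fth1 and Cp were scaled up from the low-power scan on all 36 arrays, and those of Hamp2 on 20. The arrays lay on 9 slides of 4, each slide holding all 3 groups. On 35 arrays 56.4% to 67.4% of spots were well above background in Cy5, but on that of quercetin replicate 2 the share was 96.7%, so counts were also made without it. The array of control replicate 5 lay farthest from its group, with a root mean square deviation of 0.501 on the log2 scale against 0.347 for quercetin replicate 2 and 0.151 to 0.332 for the other 34. Leaving out either array left the counts of called iron handling genes as they are given here. Summed over the 4 hepatocyte markers not saturated on any array the log2 level was 18.22 to 18.76 at baseline (median 18.55), 18.10 to 18.71 in the control group (median 18.51) and 17.99 to 18.64 in the quercetin group (median 18.43). The fifth marker, Alb, was saturated in Cy5 on 35 of 36 arrays and is left out of this sum. In whole liver, fewer cells of a type and less RNA per cell cannot be told apart.

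Between the quercetin and the control group, no iron handling gene was called. With limma and an adjusted p-value under 0.05, 0 of 10 genes passed, while 2.36% of all probes did (1.49% higher and 0.863% lower). At an unadjusted p under 0.05 the count was also 0, and the lowest of the 10 p-values was 0.054, for Cp. The t-test named in the methods gave 1 gene, Cp, at its unadjusted threshold and 0 after adjustment. The differences ran from -0.14 for Hamp2 to 0.25 for Tfrc, with a median of -0.04 beside 0.01 for all probes. None of the genes was called in any of the 17 alternative settings in which it was tested (16 for Tfrc).

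After 12 weeks on the control diet, 0 of 10 genes were called against baseline, where 21.3% of all probes were (10.9% higher and 10.4% lower). Age and time on the diet differ together in every comparison with baseline. The unadjusted count was again 0, with the lowest p of 0.0541 for Hfe2, and the t-test gave 0 with and without adjustment. Of the differences 9 lay below 0 and 1, that of Fth1, lay above, and with median centring, where the median of all probes was itself 0.13, Trf, Trfr2, Slc40a1, Hfe and Cp lay between 0.02 and 0.09. Their median was -0.10 beside 0.00 for all probes. From the scanner intensities with loess normalisation, however, Cp (log2 difference -0.16, adjusted p = 0.0155) and Trfr2 (-0.11, adjusted p = 0.0462) passed.

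Between the quercetin group and baseline, 2 of 10 genes were called beside 11.9% of all probes (6.62% higher and 5.3% lower). Fth1 was higher in the quercetin group and Cp was lower. Hfe2 had an unadjusted p of 0.0159 and an adjusted p of 0.0931. The median of the 10 differences was -0.15 beside 0.01 for all probes. These comparisons share their baseline or control mice and are not independent of each other.

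**Figure D1:**
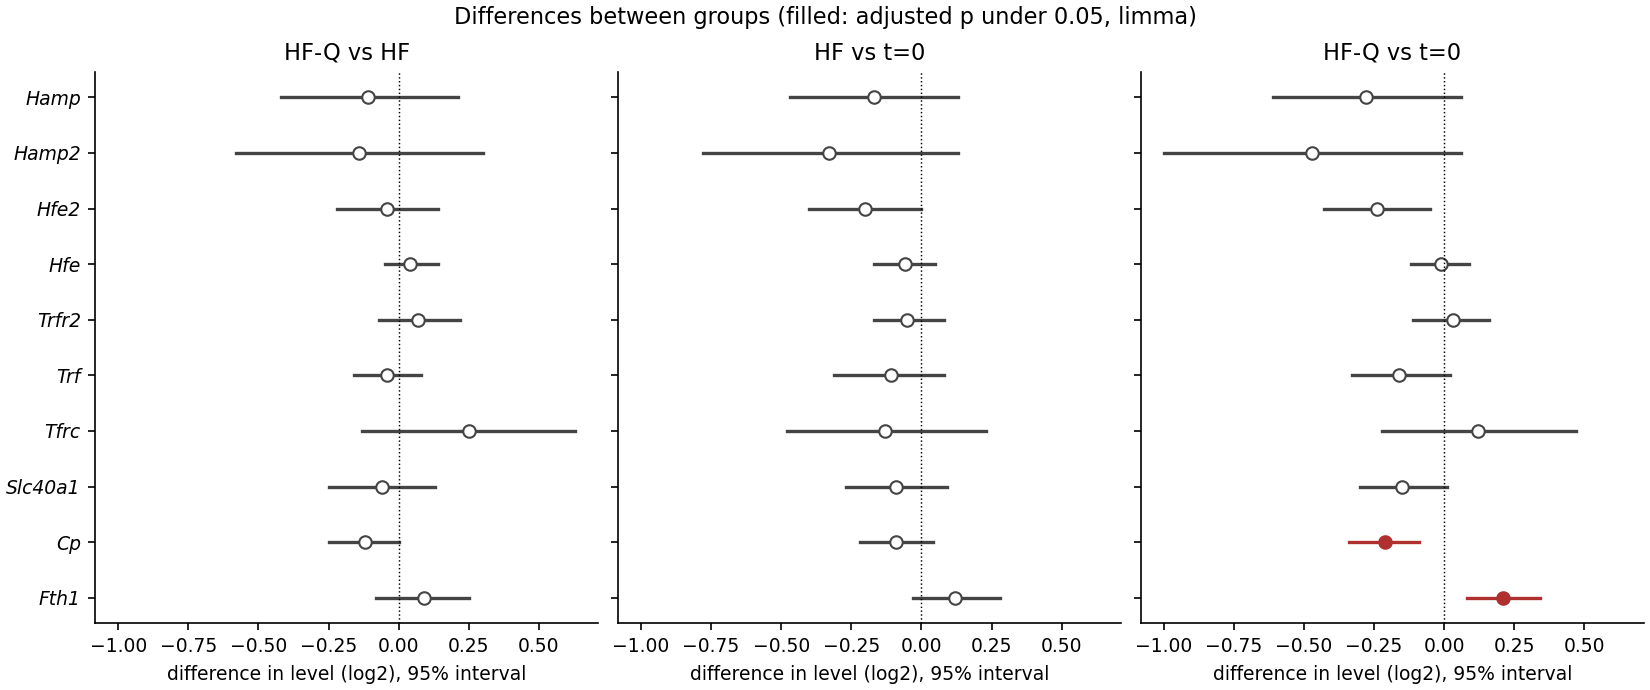
Log2 difference of each iron handling gene (point) with its 95% interval (line) in the 3 comparisons, from limma fits over all probes. Only Cp (-0.21) and Fth1 (0.21) between the quercetin group and baseline have an adjusted p under 0.05 (filled points), and every interval between quercetin and control reaches or spans 0.

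Hamp encodes hepcidin. Its level ran from 15.74 to 17.06 at baseline (median 16.23), from 15.62 to 16.78 in the control group (median 16.09) and from 15.17 to 16.62 in the quercetin group (median 16.08). The 3 groups overlapped over most of their range. The means were 16.33 ± 0.42 (SD, n = 12), 16.16 ± 0.35 (SD, n = 12) and 16.05 ± 0.45 (SD, n = 12), so that the order of the means was baseline, control, quercetin, with neighbours closer than their spread. For quercetin against control the difference was -0.11 (SE 0.15, adjusted p = 0.775, limma), a ratio of 0.929 with a 95% interval of 0.748 to 1.15, and 6 of 12 mice given quercetin exceeded the median of the controls. The same difference was -0.17 for control against baseline (adjusted p = 0.414) and -0.28 for quercetin against baseline (adjusted p = 0.291). Within the slides, quercetin was above control on 4 of 9. Among the baseline mice, replicates 1 to 6 had a median Hamp level of 16.05 (15.74 to 16.61) and replicates 7 to 12 of 16.52 (16.01 to 17.06). The ranges overlap, and the difference was not tested. Other members differed too, in either direction, with medians of 14.32 and 14.97 for Hamp2 and of 10.09 and 9.92 for Hfe2.

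Hamp2 is a neighbouring copy of Hamp in the mouse, whose peptide is not known to share the iron-regulating activity of hepcidin. Mice ranged from 13.58 to 16.29 at baseline (median 14.36), from 13.62 to 15.00 in the control group (median 14.30) and from 12.60 to 15.13 in the quercetin group (median 14.22). Baseline replicate 8 was the highest of all mice and quercetin replicate 4 the lowest. The quercetin group differed from control by -0.14 (SE 0.21, adjusted p = 0.78, limma), with a ratio between 0.667 and 1.23 in the 95% interval, the widest of the 10 on the log2 scale (-0.58 to 0.30). Against baseline the difference was -0.33 in the control group (adjusted p = 0.294) and -0.47 in the quercetin group (adjusted p = 0.248).

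Both genes lie on the reverse strand of chromosome 7, and the array files place their probes at 30651231 to 30651290 (Hamp) and 30631261 to 30631320 (Hamp2) in build mm8. How far their probes share transcripts was not tested, since probe sequences were not used here. The 250 bases before their start sites differ by 26 single-base edits. The last 140 bases before each start site are shown 5′ to 3′ from RefSeq (GRCm38.p6, reverse strand), because the BMP and the STAT3 routes to hepcidin act there; capitals mark GGCGCC, the core of the BMP response element, and TTCNNNGAA, the STAT motif. Both motifs read the same on either strand.
Hamp, chr7:30944030-30944169: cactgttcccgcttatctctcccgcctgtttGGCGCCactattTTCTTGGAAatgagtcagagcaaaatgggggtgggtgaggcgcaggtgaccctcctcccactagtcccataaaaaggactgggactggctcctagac
Hamp2, chr7:30924182-30924321: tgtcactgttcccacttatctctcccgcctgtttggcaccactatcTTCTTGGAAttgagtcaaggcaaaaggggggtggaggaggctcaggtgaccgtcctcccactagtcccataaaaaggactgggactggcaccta
In Hamp, GGCGCC starts 109 bases and TTCNNNGAA 97 bases before the start site. The Hamp2 window holds TTCNNNGAA, 94 bases before the start, and GGCGCC was not found in its 250 bases. Of 32851 promoter windows of the same length, 9.59% hold GGCGCC and 7.02% hold TTCNNNGAA.

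**Figure D2:**
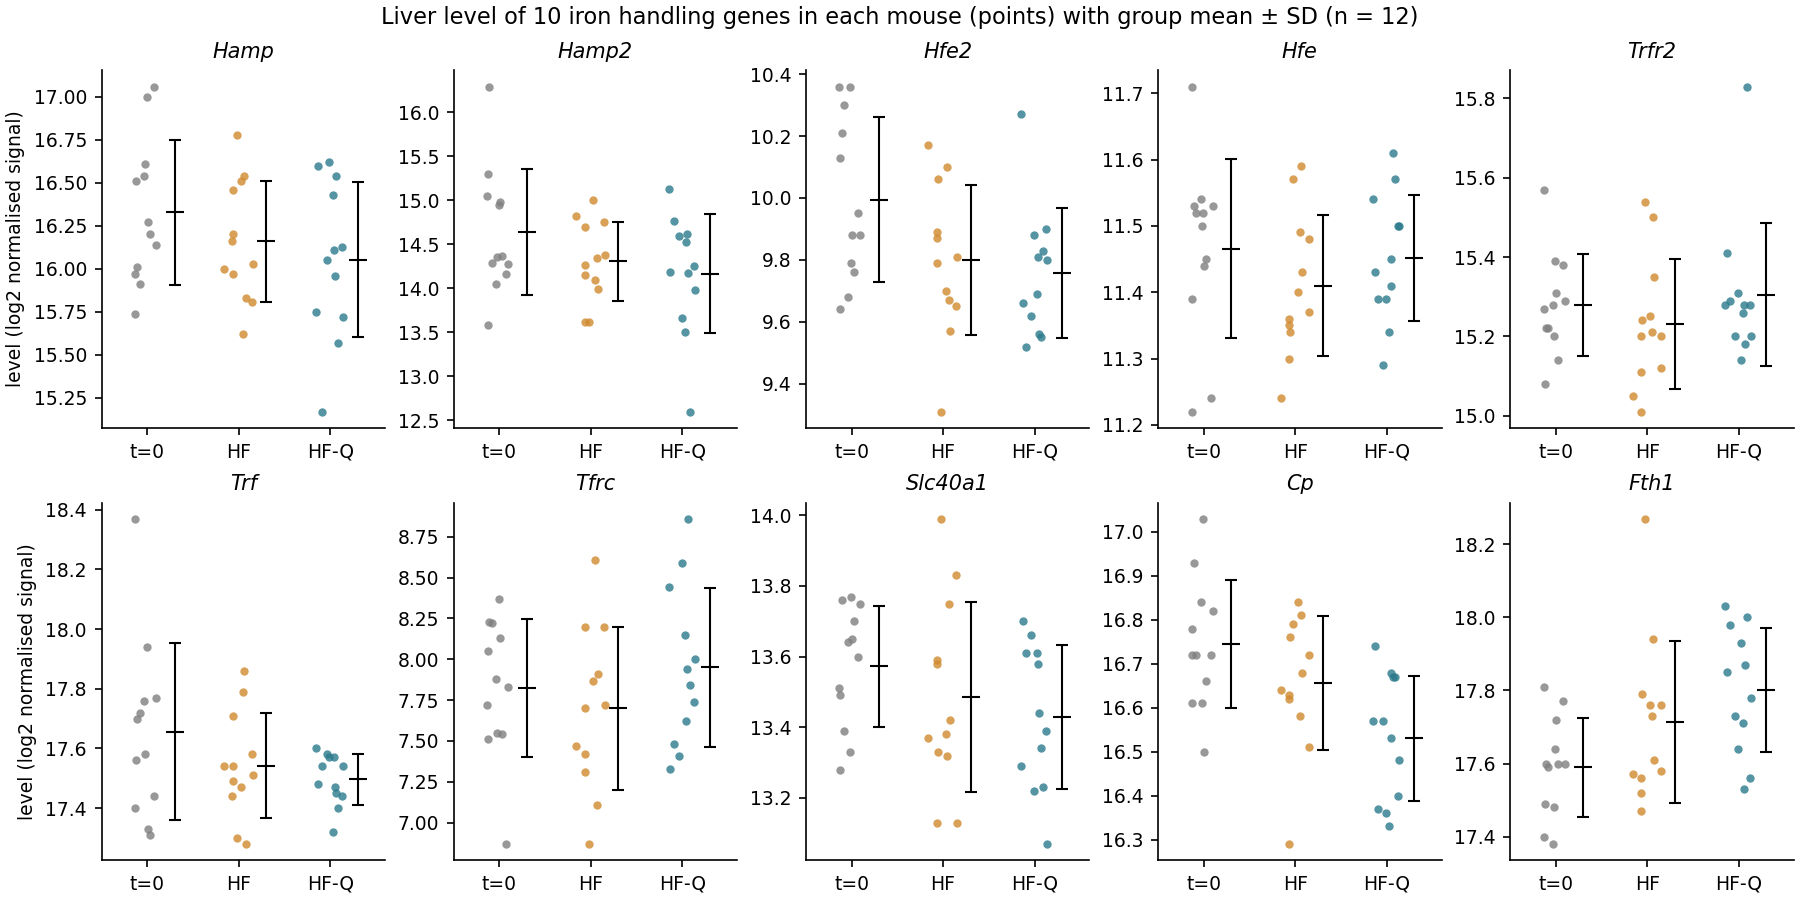
Level of the 10 iron handling genes in each of 36 mice (points) as log2 normalised signal, with the group mean and SD (n = 12) beside them; each panel has its own axis. The groups overlap in all 10 panels, and Fth1 and Cp show the shifts between baseline and quercetin (17.59 to 17.80 and 16.75 to 16.53).

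The receptors and co-receptors that report iron to hepcidin had no call in the main limma fits of the 3 comparisons. There only Hfe2 had an unadjusted p under 0.05, between quercetin and baseline. Hfe2, the BMP co-receptor hemojuvelin (probe on chromosome 3, 96613595 to 96613654, in mm8 as for all probes), ran from 9.64 to 10.36 at baseline (median 9.92), from 9.31 to 10.17 in the control group (median 9.80) and from 9.52 to 10.27 in the quercetin group (median 9.75). The groups overlapped, though 11 of 12 quercetin-fed mice lay below the baseline median. Hfe2 differed from baseline by -0.24 in the quercetin group (SE 0.09, adjusted p = 0.0931, limma) and by -0.20 in the control group (SE 0.10, adjusted p = 0.148), and quercetin and control differed by -0.04 (ratio 0.972, 95% interval 0.857 to 1.1). With the slide as a fixed block the quercetin value against baseline was -0.25 and passed (adjusted p = 0.0325).

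Hfe encodes the hereditary haemochromatosis protein. Its main probe (chromosome 13, 23711518 to 23711577) had the smallest spread of the 10 genes, with a pooled SD between mice of 0.11. The group means were 11.47 ± 0.13 (SD, n = 12) at baseline, 11.41 ± 0.11 (SD, n = 12) in the control group and 11.45 ± 0.10 (SD, n = 12) in the quercetin group. The quercetin-to-control ratio of 1.03 had a 95% interval of 0.963 to 1.1. A second, dimmer Hfe probe at 23710064 to 23710123 gave 1.05 (0.943 to 1.17), and neither probe was called. With median centring the second probe had a log2 difference of -0.07, beside a median of -0.09 over all probes.

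Trfr2, the transferrin sensor of hepatocytes (chromosome 5, 137817152 to 137817211), had means of 15.28 ± 0.13 (SD, n = 12) at baseline, 15.23 ± 0.16 (SD, n = 12) in the control group and 15.31 ± 0.18 (SD, n = 12) in the quercetin group. Quercetin replicate 4 lay apart at 15.83. The quercetin-to-control ratio was 1.05 (95% interval 0.953 to 1.16, adjusted p = 0.638, limma). Control against baseline was called with loess (-0.11, adjusted p = 0.0462) and with scale normalisation (-0.10, adjusted p = 0.0416).

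Trf encodes transferrin, the plasma iron carrier made by hepatocytes. Its probe is placed on chromosome 9 at 103073389 to 103074004, a span of 616 bases. At baseline its level ran from 17.31 to 18.37 (median 17.64), in the control group from 17.28 to 17.86 (median 17.52) and in the quercetin group from 17.32 to 17.60 (median 17.51). The SD between mice was 0.30 at baseline, 0.17 with the control diet and 0.09 with quercetin, a difference in spread that was not tested. All 12 quercetin-fed mice lay below the baseline median, but the difference of -0.16 (SE 0.09) had an adjusted p of 0.252 by limma. Quercetin and control differed by -0.04, a ratio of 0.970 with a 95% interval of 0.892 to 1.05.

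Tfrc, the receptor for cellular uptake of transferrin iron, was measured by a probe printed on 10 spots (chromosome 16, 32551916 to 32551975). The spots of a mouse had a mean SD of 0.17, against an SD of 0.47 between the mice of a group. Its level ran from 6.87 to 8.37 at baseline, from 6.87 to 8.61 in the control group and from 7.33 to 8.86 in the quercetin group, so that the groups overlapped almost fully. Medians were 7.86, 7.71 and 7.89. The quercetin-to-control difference of 0.25 (SE 0.18, adjusted p = 0.528, limma) corresponds to a ratio of 1.19 with a 95% interval of 0.915 to 1.55, and 8 of 12 mice given quercetin exceeded the median of the controls.

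Slc40a1 encodes ferroportin, the iron exporter (chromosome 1, 45852956 to 45853015). Levels were 13.28 to 13.77 at baseline (median 13.62), 13.13 to 13.99 in the control group (median 13.40) and 13.07 to 13.70 in the quercetin group (median 13.42). The differences were -0.06 for quercetin against control (ratio 0.961, 95% interval 0.842 to 1.1), -0.09 for control against baseline and -0.15 for quercetin against baseline (SE 0.08, adjusted p = 0.22, limma). In the last of these, 10 of 12 quercetin-fed mice lay below the baseline median.

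Cp encodes ceruloplasmin, the ferroxidase that lets exported iron bind transferrin (chromosome 3, 20181226 to 20181285). Levels ran from 16.50 to 17.03 at baseline (median 16.72), from 16.29 to 16.84 in the control group (median 16.66) and from 16.33 to 16.74 in the quercetin group (median 16.55). The groups overlapped, while 11 of 12 quercetin-fed mice lay below the baseline median. Quercetin was lower than baseline by a log2 difference of -0.21 (SE 0.06, adjusted p = 0.0209, limma), a ratio of 0.862 with a 95% interval of 0.790 to 0.939. The quercetin mean was lower on 8 of 9 slides. Control lay between them, at -0.09 from baseline (adjusted p = 0.305), and quercetin differed from control by -0.12 (SE 0.06, adjusted p = 0.332). Control was also called lower than baseline with loess, scale normalisation, Feature Extraction signals, Cy5 alone and no filter (-0.19 to -0.14, adjusted p = 0.0139 to 0.0304). The quercetin difference from baseline kept its sign in all 16 alternatives, at -0.32 to -0.10, and lost its call with median centring (adjusted p = 0.779) and with the Cy5 channel alone (adjusted p = 0.0502). Of 5 hepatocyte markers, 3 were lower and 2 higher in the same comparison, with a median of -0.05. Only Ttr (-0.33) and Cps1 (-0.45) were called, and the part of these markers in the value of Cp was not tested.

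Fth1 encodes the heavy chain of ferritin (chromosome 19, 10052040 to 10052099). Its level ran from 17.38 to 17.81 at baseline (median 17.60), from 17.47 to 18.27 in the control group (median 17.67) and from 17.53 to 18.03 in the quercetin group (median 17.82). Here 10 of 12 quercetin-fed mice lay above the baseline median, and the quercetin mean was higher on 9 of 9 slides. The difference was 0.21 (SE 0.06, adjusted p = 0.0306, limma), a ratio of 1.16 with a 95% interval of 1.06 to 1.27. Control differed from baseline by 0.12 (adjusted p = 0.23), and quercetin from control by 0.09 (adjusted p = 0.62). The quercetin value against baseline kept its sign in all 16 alternatives, at 0.11 to 0.70. The 0.70 came with scale normalisation (adjusted p = 0.235, limma). The call was lost in 9 alternatives, among them loess normalisation of the scanner intensities (0.14, adjusted p = 0.162) and all 36 arrays in a common fit (adjusted p = 0.0526). Ferritin genes have near-identical pseudogene copies, whose share in the Fth1 signal was not tested.

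The members differed widely in how much they varied between mice of the same group. The pooled within-group SD was 0.62 for Hamp2, 0.47 for Tfrc and 0.41 for Hamp, beside a median of 0.18 over all probes. These SDs were larger than those of at least 96.6% of probes. The other 7 genes had SDs of 0.11 to 0.24, within the range from the 5.36th to the 80th percentile. Hamp spanned a 2.74-fold range among the quercetin-fed mice, 2.23-fold among the controls and 2.50-fold at baseline, while Hamp2 spanned 5.79-fold, 2.6-fold and 6.52-fold.

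**Figure D3:**
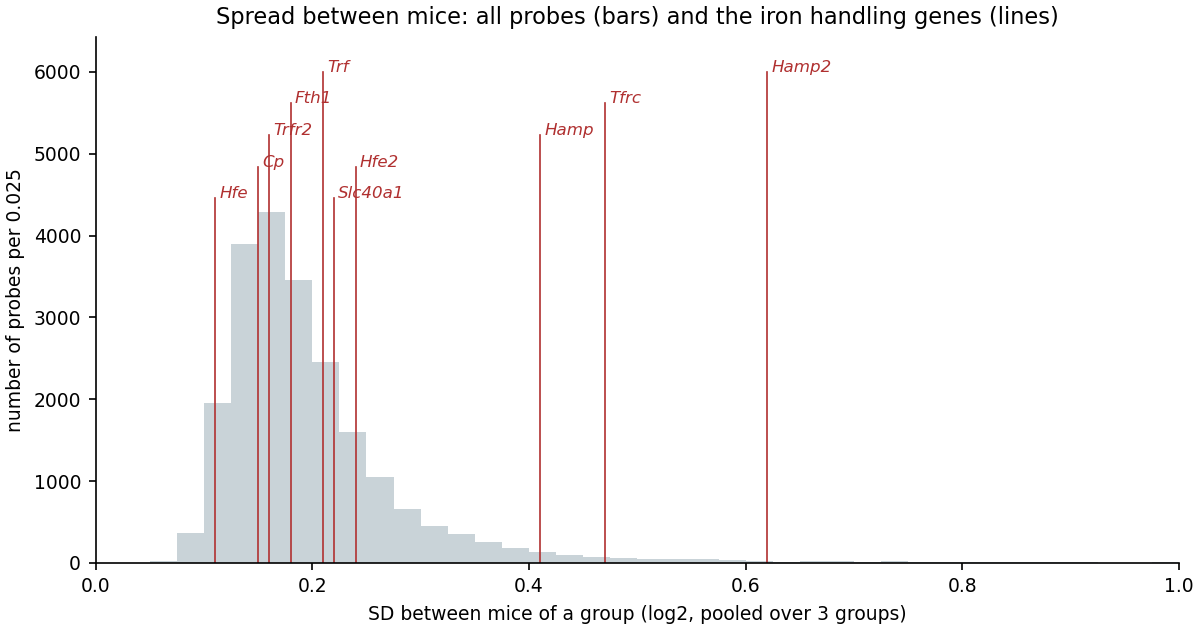
Number of probes (bars, per 0.025) by the SD between mice of a group, on the log2 scale and pooled over the 3 groups, with a line for each of the 10 iron handling genes; 66 probes with an SD above 1 are not drawn. Hamp (0.41), Tfrc (0.47) and Hamp2 (0.62) lie in the right tail and the other 7 between 0.11 and 0.24.

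Mice with a high Hamp level also had a high level of Id1, a BMP target gene. Of 19 genes related to Hamp across the 36 mice, each as the deviation from its group mean, Id1 had a Pearson r of 0.73 and a Spearman rho of 0.75. Both had p = 1e-05 in a permutation test within groups, the smallest that 100000 resamples can give, and 0.00019 after adjustment over the 19 relations. The r was 0.89 within the baseline group, 0.81 within the control group and 0.51 within the quercetin group. It was 0.73 without the 2 mice farthest from the Hamp median, 0.73 after slide means were removed, 0.74 without quercetin replicate 2 and 0.62 with loess values, where it was 0.28 within the quercetin group. Each point takes both genes from the same array, and the part of array noise was not tested.

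No other relation of Hamp passed. Hamp2 had an r of -0.15 with Hamp (rho -0.16, adjusted p = 0.58 for r in the permutation test), and -0.11, -0.23 and -0.16 within baseline, control and quercetin. A relation between the levels of the neighbouring genes was thus not detected in these mice. The r of Hamp2 with Id1, computed after the other values were seen and not tested, was -0.09. Smad7, which encodes the inhibitory SMAD and is another BMP target, had an r of 0.31 with Hamp over all mice (adjusted p = 0.486, permutation test), with 0.56 at baseline, 0.81 among controls and -0.49 with quercetin; the difference between groups was not tested. For Bmp6, the BMP ligand that reports liver iron, r was -0.11. The acute-phase gene Saa1 gave -0.25, with -0.23, 0.12 and -0.42 within baseline, control and quercetin. Socs3, a target of STAT3, gave -0.08, with 0.33, 0.31 and -0.58, and Stat3 gave -0.19, with 0.10, 0.24 and -0.62. Quercetin replicate 4 had the highest Socs3 (12.55) and Stat3 (13.84) levels of its group. These differences between groups were not tested either. Fgb, also of the acute phase, was among the 19 but was saturated in Cy5 on 11 of 36 arrays, so its r is not read.

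**Figure D4:**
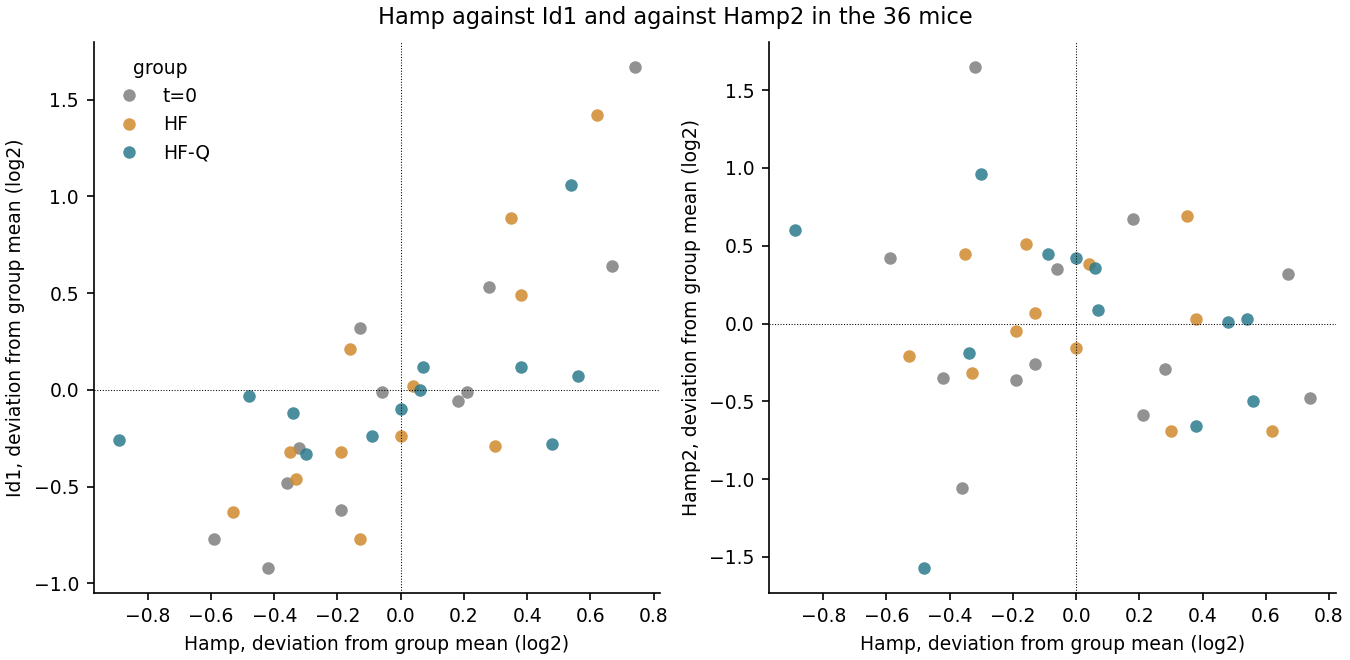
Deviation of Hamp from its group mean (x axis, log2) against that of Id1 (left) and Hamp2 (right) in the 36 mice, coloured by group. Id1 rises with Hamp (r = 0.73), while the points of Hamp2 scatter (r = -0.15).

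Over all genes with a symbol outside the member list, Id1 was also the gene whose deviations were most like those of Hamp, followed by Gucy2c (r = 0.67) and Zbtb7c (0.62). For Cp these were Arpc3 (0.79), S100a1 (0.78) and Riok3 (0.77). For Tfrc they included Mdh1 (0.79) and Gpr89 (0.78), and for Slc40a1 they were Ddx5, Adam9 and Sh3bgrl, each at 0.70. These are likenesses over 36 mice, picked from all genes and without a test.

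Around the members, 78 of 84 other genes of iron and heme metabolism had a value. Between quercetin and control 3 of the 78 (3.85%) were called, beside 2.36% of all probes. Bmp2 and Bach1 were higher in the quercetin group and Id1 was lower.

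Bmp2 encodes a BMP ligand of the liver endothelium that acts on hepcidin. Mice ranged from 7.98 to 8.50 in the control group (median 8.30), from 8.34 to 8.82 in the quercetin group (median 8.63) and from 8.23 to 8.70 at baseline (median 8.45). All 12 mice given quercetin exceeded the median of the controls, and quercetin was higher on 9 of 9 slides. The difference was 0.37 (adjusted p = 0.00399, limma), a ratio of 1.29. Control was lower than baseline by a log2 difference of -0.24 (adjusted p = 0.0142), and quercetin and baseline differed by 0.13 (adjusted p = 0.177).

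Id1 moved the other way. Levels ran from 9.35 to 11.55 in the control group (median 9.86), from 9.03 to 10.41 in the quercetin group (median 9.29) and from 8.78 to 11.37 at baseline (median 9.66). Quercetin was lower than control by -0.77 (adjusted p = 0.0365, limma), a ratio of 0.587, and 1 of 12 mice given quercetin exceeded the median of the controls. The call was lost in 7 of 17 alternatives, among them the slide as a fixed block (-0.72, adjusted p = 0.108) and the adjusted t-test (adjusted p = 0.0692). Smad7 (-0.39, adjusted p = 0.124, limma) and Id3 (-0.48, adjusted p = 0.143), also BMP targets, were not called. Nor were Smad6, Atoh8 and Id2 of the same signalling route. Their means in control and quercetin were 8.43 and 8.46 for Smad6, 8.79 and 8.70 for Atoh8, and 14.65 and 14.39 for Id2. Hamp, whose deviations followed Id1 within the groups, had the difference of -0.11 given above.

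Bach1 encodes the heme-sensing repressor of Hmox1 and of ferritin genes. Its level ran from 9.61 to 10.07 in the control group (median 9.82), from 9.78 to 10.64 in the quercetin group (median 10.24) and from 9.88 to 11.12 at baseline (median 10.60). Quercetin was 0.43 above control (adjusted p = 0.0034, limma), and control was lower than baseline by a difference of -0.72 (adjusted p = 5.86e-06), with 0 of 12 control mice above the baseline median. Hmox1, its target, which breaks down heme, was higher in control than at baseline by 0.35 (adjusted p = 0.0177), with -0.09 between quercetin and control (adjusted p = 0.664). With median centring neither Bmp2 (0.21, adjusted p = 0.40), Id1 (-0.84, adjusted p = 0.098) nor Bach1 (0.35, adjusted p = 0.243) was called between quercetin and control.

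**Figure D5:**
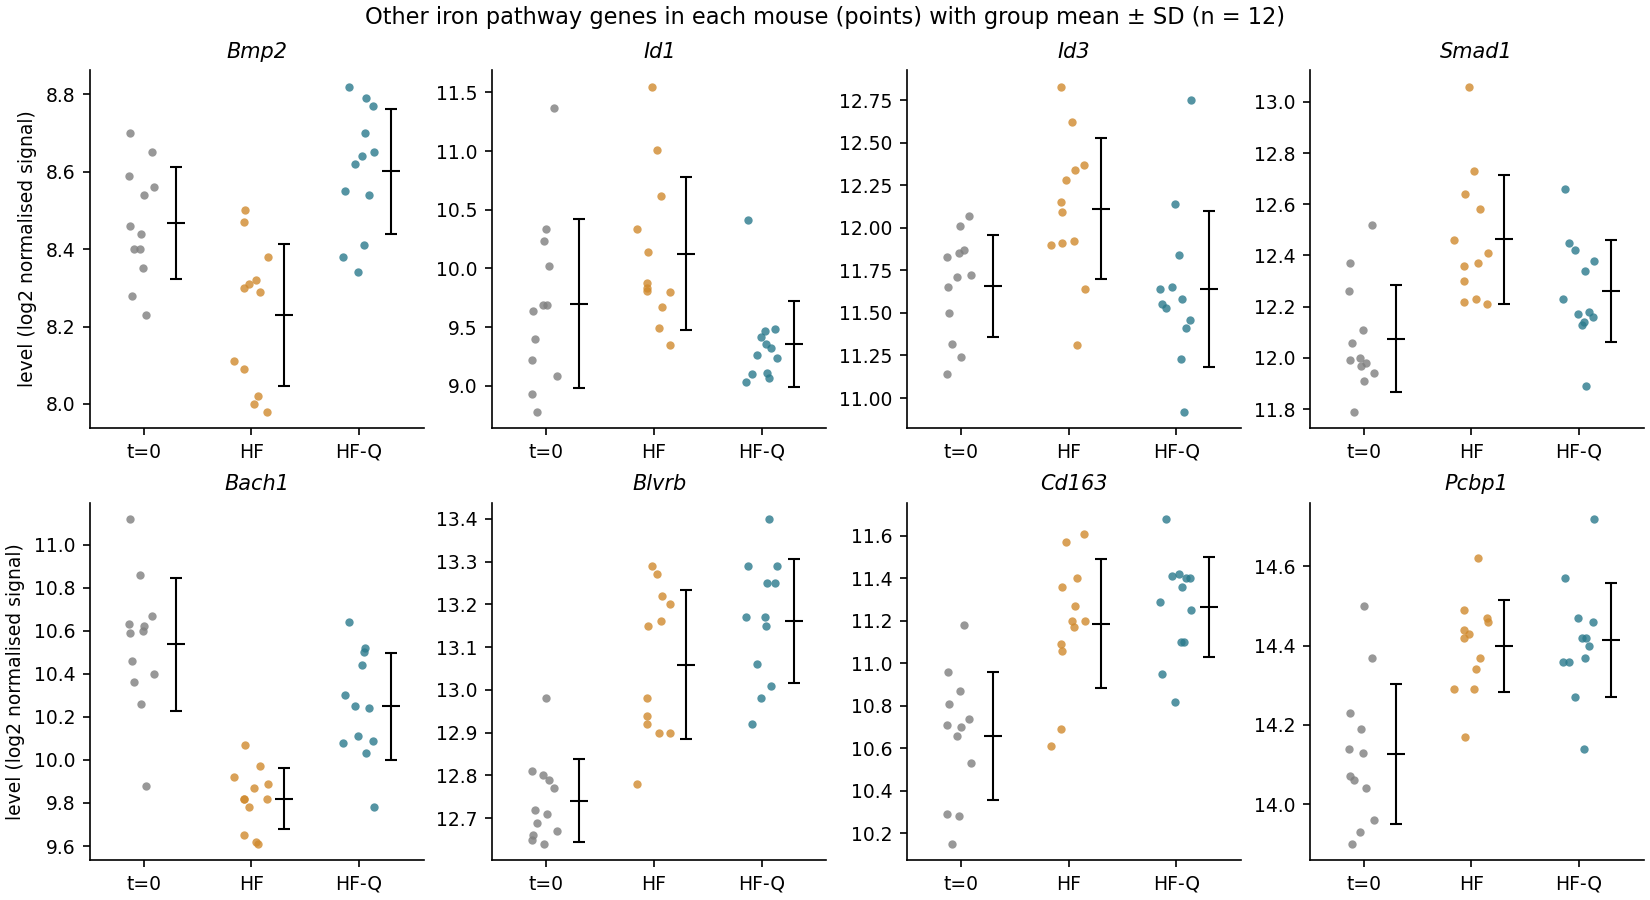
Level of 8 other iron pathway genes in each mouse (points), as log2 normalised signal, with group mean and SD (n = 12); each panel has its own axis. Bmp2 and Bach1 are lowest in the control group, Id1 is highest there, and Blvrb, Cd163 and Pcbp1 are higher in both 12-week groups than at baseline.

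Genes of the circadian clock moved in the same comparison. Of 9 clock markers, 6 were called between quercetin and control, with Arntl at -1.0, Clock at -0.46, Dbp at 0.92, Tef at 0.63, and Per3 and Nr1d2 at 0.42. The endothelial marker Pecam1 was also higher in the quercetin group (0.38, adjusted p = 0.00734), the only one called of 6 endothelial markers, and lower in control than at baseline (-0.34, adjusted p = 0.0036). Summed over the 6, the median log2 level was 14.63 at baseline, 14.67 among controls and 14.69 with quercetin. Their part in the values of Bmp2, Id1 and Bach1 was not tested.

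Against baseline, 18 of the 78 other genes were called in the control group (23.1%, beside 21.3% of all probes) and 10 in the quercetin group (12.8%, beside 11.9%). The shares of calls thus lay near those of the whole array.

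In the BMP and SMAD list of 21 genes, control against baseline gave 2 higher, Smad1 (0.39, adjusted p = 0.00312), the signal transducer, and Id3 (0.46, adjusted p = 0.0188), and 1 lower, Bmp2. Quercetin against baseline gave 0 by limma and by the adjusted t-test and 4 at an unadjusted p under 0.05 (Bmp2, Smad1, Smad6 and Tmprss6), with the list at a median of 0.01. Bmp6 differed by -0.06 and -0.02, and Tmprss6, the protease that restrains hepcidin by cutting hemojuvelin, by -0.10 and -0.12, none of them called. Of 7 genes of interleukin-6 signalling, Stat3 alone was called, higher in control than at baseline (0.28, adjusted p = 0.0475), a call made in 6 of 15 alternatives and not with loess values (0.23, adjusted p = 0.108).

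Of 10 uptake genes, control against baseline gave 1 higher and 3 lower. With the slide as a fixed block all 4 calls were lost (adjusted p = 0.0598 to 0.0788, limma), and with all 36 arrays in a common fit the 3 lower ones were lost. Steap1, a metalloreductase, was higher (0.28, adjusted p = 0.0236), though its probe lay above background in Cy3 on only 24 of 36 arrays. Slc39a14, the transporter of iron not bound to transferrin, was lower (-0.22, adjusted p = 0.0253), as were Scara5, a ferritin receptor (-0.69, adjusted p = 0.0385; without control replicate 5 -0.62, adjusted p = 0.0594), and Lcn2, a siderophore-binding protein (-0.54, adjusted p = 0.0183). The Lcn2 probe was above background in Cy5 on 28 of 36 arrays, and without a filter on dim probes its value was -0.31 (adjusted p = 0.0774). In quercetin against baseline only Steap1 was called (0.38, adjusted p = 0.00526). Slc11a2, the divalent metal transporter, was not called, with 0.14 and 0.03.

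Of 9 genes of storage, sensing and export, Pcbp1, which delivers iron to ferritin, exceeded baseline in the control (0.27, adjusted p = 0.0029) and the quercetin group (0.29, adjusted p = 0.00548). Fbxl5, the iron-sensing ubiquitin ligase subunit, was higher in control (0.14, adjusted p = 0.0392), a call made in 9 of 15 alternatives and lost with the slide as a fixed block (adjusted p = 0.0557). Ftl1, the ferritin light chain, was higher in quercetin (0.18, adjusted p = 0.0478, called in 8 of 16 alternatives), and its level ran from 15.27 to 15.73 at baseline and from 15.42 to 15.89 in the quercetin group. Scale normalisation between arrays turned this difference to -0.18 (adjusted p = 0.642). The iron regulatory proteins Ireb2 (-0.20 and -0.04) and Aco1 (-0.12 and -0.10) were not called in either comparison.

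Of the heme genes, 6 of 19 were called in control and 4 of 19 in quercetin against baseline. Blvrb, which reduces biliverdin, ran from 12.64 to 12.98 at baseline and from 12.92 to 13.40 in the quercetin group. It was higher by 0.32 in control (adjusted p = 0.000424) and by 0.42 in quercetin (adjusted p = 1.27e-05), with all 12 mice of each above the baseline median. Cd163, the haemoglobin scavenger receptor of macrophages, was higher by 0.53 (adjusted p = 0.00183) and 0.61 (adjusted p = 0.000416). Uros, of heme synthesis, was lower by differences of -0.37 (adjusted p = 0.00271) and -0.34 (adjusted p = 0.0479). The second of these was called in 11 of 16 alternatives and lost with the slide as a fixed block (adjusted p = 0.0528) and the adjusted t-test (adjusted p = 0.0708). Flvcr1, a heme exporter, was higher in control (0.19) and Alad, of heme synthesis, in quercetin (0.16, called in 6 of 16 alternatives), which scale normalisation turned to -0.25 (adjusted p = 0.502). The plasma scavengers Hpx (0.20 and 0.09) and Hp (-0.15 and 0.00) were not called.

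In the list of mitochondrial iron genes, Hscb, a co-chaperone of iron-sulfur cluster assembly, was lower than baseline in control (-0.34) and quercetin (-0.30). Slc25a37, the mitochondrial iron importer of erythroid cells, was higher in quercetin (0.29, adjusted p = 0.0147).

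Haemoglobin transcripts differed from baseline by more than any iron handling gene. The probe of Hbb-b1 was higher by 1.07 in control (adjusted p = 0.000308, limma) and by 1.38 in quercetin (adjusted p = 1.7e-07), and that of Hba-a1 by 0.93 and 1.21. Globin genes have near-identical copies that such probes may not separate. The other erythroid markers with a value had smaller differences in control, at -0.14 for Alas2 and 0.14 for Slc4a1. In quercetin against baseline Alas2 was lower (-0.26) and Slc4a1 higher (0.26). Summed over the 4 erythroid markers, the log2 level was 15.66 to 16.57 at baseline, 16.58 to 18.57 among controls and 16.91 to 17.94 with quercetin, and their part in the values of Fth1, Ftl1, Blvrb and Slc25a37 was not tested. Of 8 Kupffer cell markers 0 were called in any of the 3 comparisons by limma or the adjusted t-test, with 5 at an unadjusted p under 0.05 in control against baseline, 6 in quercetin against baseline and 0 between quercetin and control. All 8 lay above 0 against baseline, with a median of 0.29 in control and 0.28 in quercetin, and their part in the value of Cd163 was not tested. Their summed log2 level was 14.27 to 16.16 at baseline, 14.96 to 16.05 in control and 14.91 to 15.74 in quercetin. The acute-phase list of 8 genes had 1 call, Orm2, lower in control than at baseline (-0.31, adjusted p = 0.028). Of the 5 hepatocyte markers, Cps1 was lower than baseline in control (-0.32, adjusted p = 0.0184) and quercetin (-0.45, adjusted p = 0.00294). Ttr was lower in quercetin (-0.33, adjusted p = 0.0377, lower on 8 of 9 slides).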

How the data were processed

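Liver RNA of 36 mice was measured on Agilent whole-mouse 2-colour arrays, with Cy5 for a mouse and Cy3 for the pool of all samples. Spots were quantified with Agilent Feature Extraction 10.5.1.1, per the submitters' processing notes. The authors kept spots whose signal, averaged over Cy5 and Cy3, was above 2 times background, took logs and normalised them. The deposited processed table thus holds log2 signal with an array median of 8.96 (23256 spots). Its values differed from log2 Cy5 minus Cy3 of the scanner files, put at the reference level, by a median of 0.0205. The deposited scanner files hold intensity values, raw and processed; they gave probe names, background and the alternatives.

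Spots of a probe were averaged (21781 probes), and other genes were represented by their brightest probe. Each pair of groups was fitted with limma 3.58.1 in R 4.3.3 (data.table, version 1.17.8, and statmod 1.5.0), adjusted by Benjamini-Hochberg over all probes, and called at an adjusted p under 0.05. The authors report individual housing for the control and quercetin mice, and nothing in the labels names litters. The p-values set group differences against the spread between these mice. The number of arrays limits the precision. Hamp was related to 19 genes with permutations within groups. Members, gene lists and tests were chosen with earlier results of these data known. Named are all members, each other iron gene called in a comparison and 12 further pathway genes. The 3 genes most like Hamp, Tfrc, Slc40a1 and Cp are named too. Alas1, Smad6, Atoh8, Id2 and single marker genes were named after their values were seen. Some genes that these rules name are not reported here. Alternatives covered normexp background correction (offset 50) with loess, median centring or scale normalisation, Feature Extraction signals, Cy5 alone, filters on dim probes (none, or 4 times background), slide and replicate blocks, the methods' t-test, array weights and left-out arrays; the last without control replicate 5, and loess without quercetin replicate 2, were added after seeing the data. The fits were tested on simulated data. Alternatives from the scanner files use probes with 6 or more valid arrays per group. Except in the setting without a filter, these probes also had a mean signal above 2 times background in each dye.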

Additional observations from a re-analysis of the deposited data

How the results depend on the processing

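Of 522 alternative values of member probes, 490 kept their direction and side of the threshold, 11 lost and 8 gained a call and 13 changed sign. A sign change of an uncalled value that moved by less than 1 SE was counted as a kept direction. The called members between quercetin and control stayed at 0 throughout. Against baseline the control group had 2 called members with loess and with scale normalisation (Trfr2 and Cp), and 1 (Cp) with Feature Extraction signals, Cy5 alone or no filter. The quercetin group had 0 called members with median centring or Cy5 alone, and 1 with loess (with or without quercetin replicate 2), scale normalisation, Feature Extraction signals, no filter or all 36 arrays. Other iron genes called numbered 0 with median centring between quercetin and control, 11 with Cy5 alone in control against baseline, and 2 (median centring), 2 (scale) and 3 (Cy5 alone) in quercetin against baseline. Calls over all probes between quercetin and control were 513 (2.36%), but 210 with slide as a fixed block and 804 with array weights. With 2 times background required in both dyes, 18391 probes were tested from the scanner files. Of these, 68 (0.37%) were called with median centring, 87 (0.473%) with scale and 193 (1.05%) with Cy5 alone. In control against baseline the calls were 4645, but 2795 of 17797 probes tested with Cy5 alone (15.7%). The stricter filter gave 3012 calls, from 11511 probes tested in place of 21781 (26.2% called in place of 21.3%). It dropped Tfrc and the second Hfe probe. In quercetin against baseline the calls were 2596 (11.9%), but 4220 with array weights. Of 18380 probes tested from the scanner files, 333 (1.81%) were called with median centring, 572 (3.11%) with scale and 1180 (6.42%) with Cy5 alone. Apart from the filter, the cause was not tested. The share of calls that were higher went from 63.4% to 25% (median centring), 50% (stricter filter) and 73.8% (slide block) between quercetin and control, from 51.3% to 90% (median centring, where the median of all probes was 0.13) and 65.1% (stricter filter) in control against baseline, and from 55.5% to 38.6% (Cy5 alone) and 44.7% (Feature Extraction signals) in quercetin against baseline. Only sign changes with a shift of 1 SE or more are given here. Signs changed with median centring for the second Hfe probe between quercetin and control (-0.07), for Trf (0.02), Trfr2 (0.09), Slc40a1 (0.04), Hfe (0.07, second probe 0.08) and Cp (0.04) in control against baseline, all below that 0.13, and for Hfe in quercetin against baseline (0.08). With scale normalisation they changed for Hamp (0.31) and Slc40a1 (0.19) between quercetin and control, and for Hamp (0.10), Slc40a1 (0.07), Hfe (0.18), Ftl1 (-0.18) and Alad (-0.25) in quercetin against baseline. None of these reached the threshold. Without quercetin replicate 2 or control replicate 5, calls over all probes were 415 to 543 between quercetin and control. Same-numbered mice correlated over 0.1 in 3 of 12 pairs between quercetin and control, and in 4 of 12 in each comparison with baseline. These counts show no clear pairing of mice by replicate number, and a weak one was not tested. With the replicate block 360, 4636 and 2372 probes were called in quercetin against control, control against baseline and quercetin against baseline, and 1 member, Cp, in the last (Fth1 adjusted p = 0.0986); no other member's call changed with it.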

Other observations

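Alas1, the first and rate-limiting enzyme of hepatic heme synthesis, had the widest difference of the heme list between quercetin and control, and is named after its values were seen. It was 1.17 higher on the log2 scale (a ratio of 2.25), with all 12 mice given quercetin above the median of the controls, and had an adjusted p of 0.0584 by limma. The groups overlapped, at 13.35 to 16.82 among controls (SD 1.07) and 14.94 to 16.96 with quercetin (SD 0.66). Control differed from baseline by -0.63 and quercetin from baseline by 0.54.

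Fth1 and Ftl1, the heavy and light chains of ferritin, had an r of 0.56 (rho 0.35) across the 36 mice, each as the deviation from its group mean. Within baseline, control and quercetin their r was 0.57, 0.88 and -0.23. Control replicate 1 had the highest level of all mice for Fth1 (18.27) and for Ftl1 (16.52). Hamp2 and Trf had an r of 0.31, with 0.27, 0.33 and 0.63 within the same groups. All these r values were computed after others were seen and were not tested.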
